A study of Mus musculus with 12 samples.

Results

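The annexin family was followed in bulk liver RNA of CCR1 knockout and wild-type mice on a cholesterol-rich diet. Annexin genes were taken from the deposited table by symbol, and the 9 chosen (Anxa1, Anxa2, Anxa3, Anxa4, Anxa5, Anxa6, Anxa7, Anxa11 and Anxa13) are 9 of the 27912 genes it lists. All 9 passed the filter on low counts. The CCR1-KO group held 3 livers (replicates 65, 66 and 67) of male mice lacking the chemokine receptor CCR1, and the WT group held 3 livers (replicates 62, 63 and 64) of male C57BL/6 mice. Mice of both groups were 8 weeks old when the diet began and ate for 12 weeks the CL diet, which is high in fat and cholesterol and contains cholate. Chow-fed livers were not analysed here, and neither were the 6 libraries of the other groups (LKO and its WT). The sources used here do not give which part of Ccr1 was removed, nor whether it was lost in all cells. No label names separate animals for the replicates, so p-values measure the spread between these liver samples.

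Annexins are calcium-dependent binders of acidic membrane phospholipids. A conserved core carries the calcium and lipid sites, and a variable amino-terminal tail gives each member its partners. They act in membrane repair, endosome traffic, control of inflammation and assembly of proteases at the cell surface. In liver, several members are known to be more abundant in macrophages, stellate cells, bile duct cells and endothelium than in healthy hepatocytes, while Anxa6 and Anxa7 are broadly expressed.

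Libraries held 74699391 to 79154085 reads assigned to genes. The targeted gene Ccr1 was counted with 11, 4 and 14 reads in the CCR1-KO libraries, against 100, 23 and 123 in WT replicates 62, 63 and 64 (log2 fold change -2.72 ± 0.76 SE, adjusted p = 0.075, edgeR). Reads of the major urinary protein genes made up 3.36%, 12.2% and 15.8% of CCR1-KO replicates 65, 66 and 67, against 0.927% to 1.05% of WT libraries. The hepatocyte transcript Alb, which checks the labelled tissue, had 49835 to 61482 CPM in CCR1-KO and 55393 to 67345 CPM in WT libraries. The table holds 2 models of Nnt, a gene that differs between C57BL/6 substrains. One (ENSMUSG00000116207) had 0 reads in each CCR1-KO library and 1627 to 2640 reads in WT libraries, and the other (ENSMUSG00000025453) had 8626 to 10917 reads in CCR1-KO and 2977 to 3820 reads in WT libraries. Genotype and genetic background cannot be told apart in these 6 libraries. CPM are reads scaled to library size with TMM factors, which correct each library for a few very abundant genes. Values are mean ± SD over n = 3 livers a group. Each log2 fold change sets CCR1-KO over WT and is followed by its SE (standard error). Adjusted p is that of the quasi-likelihood test in edgeR, adjusted by Benjamini-Hochberg across 17729 genes, with a threshold of 0.05.

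Expression of 3 annexins fell in CCR1-KO livers: Anxa2, Anxa5 and Anxa1. None of the 9 rose in edgeR, and the other 6 did not pass. The number higher was also 0 at an unadjusted p under 0.05, in DESeq2 and in limma. Across all genes tested, the background for the edgeR counts of lists below as well, 6.44% passed, 3.61% lower and 2.83% higher. Of those that passed, 43.9% were higher with TMM and 20.4% with no scaling factors, under which the same 3 annexins passed. An unadjusted p under 0.05 was found for 5 of the 9, all lower (13.2% of all genes tested). All 9 fitted log2 fold changes were below 0, as were 49.9% of those of all genes tested. The median log2 fold change was -0.36 over the 9 annexins and 0.0017 over all genes tested. In 6 of the 9 the CCR1-KO libraries were all lower than the lowest WT library, as in 17.4% of all genes tested, and in the other 3 the groups overlapped. In bulk tissue, fewer cells of a type and less RNA per cell cannot be told apart.

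**Figure D1:**
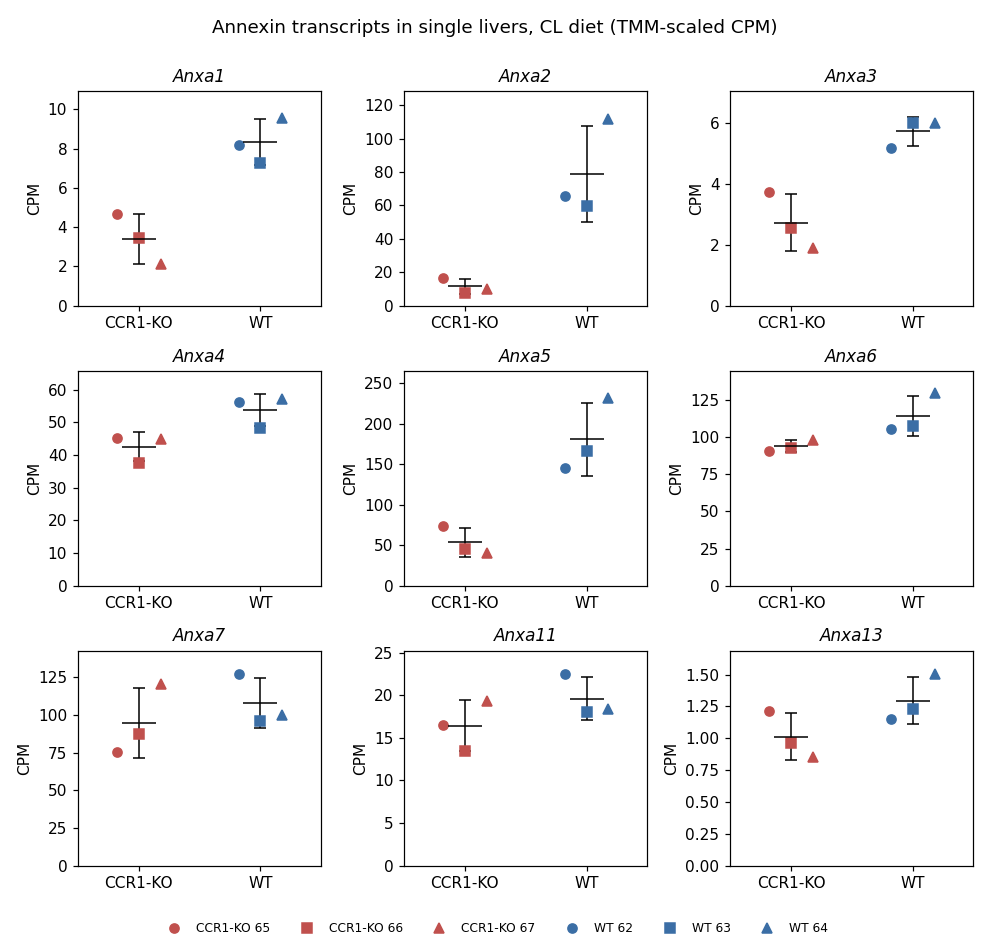
TMM-scaled CPM of each of the 9 annexin genes in the 3 CCR1-KO and 3 WT livers; each point is 1 library, the horizontal bar is the group mean and the error bar is 1 SD. For Anxa1, Anxa2 and Anxa5 the groups are far apart, with Anxa2 at 7.80 to 16.6 CPM in CCR1-KO and 59.5 to 111.7 CPM in WT livers, whereas Anxa7, Anxa11 and Anxa13 overlap.

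Anxa2, which binds S100a10 and gathers plasminogen and its activator at the cell surface, had 16.6, 7.80 and 10.2 CPM in CCR1-KO replicates 65, 66 and 67, against 65.4, 59.5 and 111.7 CPM in WT replicates 62, 63 and 64. The highest CCR1-KO liver stood well below the lowest WT liver. The gene (ENSMUSG00000032231, chromosome 9, 69453620 to 69491795, plus strand, GRCm38) averaged 11.5 ± 4.54 CPM in CCR1-KO and 78.8 ± 28.6 CPM in WT livers, which puts the knockout at 14.6% of WT. Its log2 fold change was -2.77 ± 0.34 (adjusted p = 0.0098), and 0.931% of tested genes had a lower one. Anxa2 passed in all 6 fits that left out 1 library, with adjusted p between 0.0027 and 0.042.

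Anxa5, the phosphatidylserine binder used as a probe of dying cells, had 74.3, 45.8 and 40.5 CPM in CCR1-KO replicates 65, 66 and 67, against 145, 166 and 232 CPM in WT replicates 62, 63 and 64. CCR1-KO replicate 65 was the highest of its group, and still lay below every WT liver. The gene (ENSMUSG00000027712, chromosome 3, 36448923 to 36475894, minus strand) averaged 53.5 ± 18.2 CPM in CCR1-KO and 180.9 ± 45.2 CPM in WT livers (log2 fold change -1.76 ± 0.27, adjusted p = 0.016). The call was lost without CCR1-KO replicate 66 (adjusted p = 0.056), without WT replicate 63 (adjusted p = 0.066) and without WT replicate 64 (adjusted p = 0.063), while the direction stayed.

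Anxa1, a glucocorticoid-induced mediator that signals through formyl peptide receptors to limit neutrophil entry, was the least abundant of the 3 by FPKM. It had 4.65, 3.43 and 2.12 CPM in CCR1-KO replicates 65, 66 and 67, against 8.18, 7.27 and 9.57 CPM in WT replicates 62, 63 and 64. No CCR1-KO library reached the lowest WT library. The gene (ENSMUSG00000024659, chromosome 19, 20373428 to 20390944, minus strand) averaged 3.40 ± 1.26 CPM in CCR1-KO and 8.34 ± 1.16 CPM in WT livers (log2 fold change -1.29 ± 0.29, adjusted p = 0.042). The call was close to the threshold. It held in 1 of the 6 fits that left out 1 library, that without CCR1-KO replicate 65 (adjusted p = 0.013), and adjusted p reached 0.155 in the others.

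Sequence just upstream of the RefSeq start site differs among these genes, and is shown for the 3 that fell and for Anxa11, which did not pass. Each line gives the 250 bases before the RefSeq start, read on the gene's strand from 5′ to 3′ (GRCm38.p6). Capitals mark the motifs searched on both strands, namely TATAAA (the TATA box core), TGANTCA (the core bound by AP-1 factors) and GGGCGG with its complement (the GC box). The windows are chr19:20390672-20390921 for Anxa1 (minus strand), chr9:69453433-69453682 for Anxa2 (plus strand), chr3:36475888-36476137 for Anxa5 (minus strand) and chr14:25841905-25842154 for Anxa11 (plus strand).
Anxa1: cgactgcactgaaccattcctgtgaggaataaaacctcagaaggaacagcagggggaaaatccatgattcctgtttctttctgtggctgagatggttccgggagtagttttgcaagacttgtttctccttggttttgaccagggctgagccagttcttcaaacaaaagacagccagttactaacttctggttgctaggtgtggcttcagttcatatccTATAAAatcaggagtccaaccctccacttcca
Anxa2: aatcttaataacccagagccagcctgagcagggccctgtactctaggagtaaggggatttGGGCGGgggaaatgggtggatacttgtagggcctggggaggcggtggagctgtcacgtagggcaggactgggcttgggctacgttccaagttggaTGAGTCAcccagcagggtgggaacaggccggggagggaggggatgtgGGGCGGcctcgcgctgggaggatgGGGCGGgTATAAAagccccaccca
Anxa5: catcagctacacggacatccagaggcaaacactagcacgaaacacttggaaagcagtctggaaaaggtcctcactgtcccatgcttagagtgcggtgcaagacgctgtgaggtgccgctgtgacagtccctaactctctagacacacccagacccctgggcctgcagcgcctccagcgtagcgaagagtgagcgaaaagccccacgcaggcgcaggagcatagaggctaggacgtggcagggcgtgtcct
Anxa11: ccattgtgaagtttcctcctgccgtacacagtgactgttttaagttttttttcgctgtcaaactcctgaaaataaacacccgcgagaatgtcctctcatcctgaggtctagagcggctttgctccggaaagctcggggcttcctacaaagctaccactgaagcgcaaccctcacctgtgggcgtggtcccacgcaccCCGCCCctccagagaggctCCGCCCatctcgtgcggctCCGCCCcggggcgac

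Of the 9 annexins, 6 had windows in the RefSeq table, 8 windows in all. TATAAA stood on the gene's strand in the windows of Anxa1 (32 to 27 bases before the RefSeq start) and Anxa2 (17 to 12 bases before it), and in none of the other 6 windows. The deposited gene models of Anxa1 and Anxa2 start elsewhere. The whole Anxa1 window lies inside its deposited gene, which starts at 20390944 on the minus strand. The Anxa2 TATAAA lies downstream of its deposited start at 69453620. Whether either TATAAA lies at a start used in these livers was not tested. Over all 32817 windows of this length, 7.597% held TATAAA on the gene's strand and 12.4% on either strand. TGANTCA stood in the Anxa2 window alone among the 8, 95 to 89 bases before the start, and in 6.75% of all windows. The GC box was found in Anxa2, Anxa7 and Anxa11, with 3 copies each in Anxa2 and Anxa11, and in 32.7% of all windows. No motif overlapped another in the sequences shown. The Anxa5 window, of a gene that fell, held none of the 3 motifs. These matches describe letters, and no binding was measured.

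Anxa3 was nearest to the threshold among the 6 that did not pass. Anxa3, abundant in neutrophils, had 3.74, 2.54 and 1.91 CPM in CCR1-KO replicates 65, 66 and 67, against 5.19, 5.99 and 6.01 CPM in WT replicates 62, 63 and 64. The groups did not overlap, and the log2 fold change was -1.07 ± 0.27 (adjusted p = 0.060, edgeR). The gene lies on chromosome 5 (96793339 to 96845966, plus strand). It passed in DESeq2 (adjusted p = 0.00391) and in limma on log2(FPKM + 0.5) (adjusted p = 0.037). Of the 6 fits without 1 library it passed in 1, that without CCR1-KO replicate 65 (adjusted p = 0.013), and adjusted p reached 0.183 in the others. Nor did it pass in edgeR with no filter (adjusted p = 0.087) or no scaling factors (0.070), or in limma with no filter (0.108).

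Anxa4 and Anxa6 did not pass. Anxa4, an epithelial annexin of the apical membrane (chromosome 6, 86736840 to 86793584), had 45.1, 37.4 and 44.9 CPM in CCR1-KO replicates 65, 66 and 67, against 56.1, 48.2 and 57.2 CPM in WT replicates 62, 63 and 64. Every CCR1-KO liver was lower than every WT liver, by a margin of a few CPM at its narrowest. The log2 fold change of -0.34 had a 95% interval of -0.64 to -0.046 (adjusted p = 0.15, edgeR). Anxa6, an annexin of late endosomes with a duplicated core (chromosome 11, 54979108 to 55033445), had 90.6, 92.8 and 98.3 CPM in CCR1-KO replicates 65, 66 and 67, against 105.4, 107.4 and 129.7 CPM in WT replicates 62, 63 and 64. Its groups did not overlap either, and the interval of its log2 fold change of -0.28 ran from -0.57 to 0.0071 (adjusted p = 0.21, edgeR).

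Anxa7, first described as a protein that aggregates secretory granules (chromosome 14, 20455260 to 20480133), had 75.6, 87.7 and 120.3 CPM in CCR1-KO livers, against 127, 96.2 and 100.2 CPM in WT livers. CCR1-KO replicate 67 lay above 2 of the 3 WT libraries. Anxa11, which links RNA granules to lysosomes (chromosome 14, 25842156 to 25886804), had 16.5, 13.4 and 19.4 CPM in CCR1-KO livers and 22.5, 18.04 and 18.3 CPM in WT livers. These groups overlapped through CCR1-KO replicate 67 as well. The 95% interval of the log2 fold change was -0.64 to 0.27 for Anxa7 (adjusted p = 0.60) and -0.64 to 0.13 for Anxa11 (adjusted p = 0.39, edgeR). Reads of Anxa11 may be shared with near copies: 16.2% of the 50-base words of its GENCODE M21 transcripts also occur in other genes. Of these, Gm2260 (608 words) had 676, 394 and 743 reads in CCR1-KO and 959, 538 and 791 reads in WT libraries. Gm2274 (553 words) had 251, 164 and 25 reads in CCR1-KO and 313, 443 and 340 reads in WT libraries. The share was at most 1.79% for each of the other 8 genes.

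Anxa13, an annexin of intestinal epithelium, had 97, 63 and 51 reads in CCR1-KO livers and 95, 109 and 132 reads in WT livers. At this low level the groups overlapped (1.01 ± 0.184 CPM in CCR1-KO and 1.30 ± 0.182 CPM in WT, adjusted p = 0.51, edgeR), and the interval of the log2 fold change, -1.05 to 0.34, was wide. The deposited table lists Anxa13 as a processed transcript rather than a protein-coding gene (chromosome 15, 58341363 to 58389383).

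**Figure D2:**
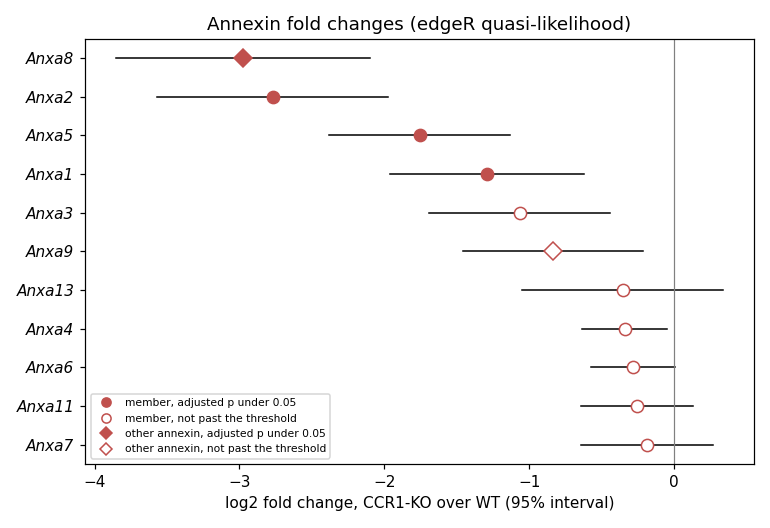
Log2 fold change of CCR1-KO over WT with its 95% interval from edgeR for the 9 chosen annexins and for Anxa8 and Anxa9; filled symbols passed an adjusted p of 0.05. Estimates run from -2.98 for Anxa8 to -0.19 for Anxa7, and all 11 lie below 0.

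The 2 further annexin genes of the table stood outside the 9. Anxa8, an annexin of stratified and injured epithelia, fell to 0.263, 0.169 and 0.201 CPM in CCR1-KO replicates 65, 66 and 67, against 1.82, 1.97 and 1.25 CPM in WT replicates 62, 63 and 64 (log2 fold change -2.98 ± 0.38, adjusted p = 0.0098, edgeR). That is 11 to 21 reads a library in CCR1-KO and 110 to 174 reads in WT livers. Anxa8 passed in 5 of 6 fits without 1 library, the exception leaving out WT replicate 63 (adjusted p = 0.0600). Anxa9, an annexin with altered calcium sites, had 0.987 to 1.31 CPM in CCR1-KO and 1.86 to 2.47 CPM in WT livers (log2 fold change -0.84, adjusted p = 0.11, edgeR), groups that did not overlap.

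Levels of different genes were compared per length, by the deposited FPKM (fragments scaled to transcript length and library size). Summed over the 9 genes, FPKM was 103, 70.2 and 68.1 in CCR1-KO replicates 65, 66 and 67, against 173, 184.9 and 259.6 in WT replicates 62, 63 and 64. It averaged 80.4 ± 19.6 FPKM in CCR1-KO and 206 ± 46.9 FPKM in WT livers, or 39.1% of WT. With FPKM rescaled by the TMM factors, the knockout stood at 48.0% of WT.

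The make-up of this sum differed. Anxa5 held 30.8% ± 7.72 of annexin FPKM in CCR1-KO and 50.2% ± 4.04 in WT livers. Anxa2 held 3.14% ± 0.919 in CCR1-KO and 10.3% ± 1.80 in WT livers. Anxa6 held 33.4% ± 3.89 in CCR1-KO and 19.5% ± 1.15 in WT livers. For each of these 3 genes the share in every CCR1-KO library was outside the range of the WT libraries. The same held for Anxa4, Anxa11 and Anxa13, whose shares were higher in CCR1-KO. Shares sum to a fixed total, and the FPKM of Anxa6 itself was lower in each CCR1-KO library than in each WT library.

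In CCR1-KO livers the order by FPKM was Anxa6 (26.4 ± 3.07), Anxa5 (25.7 ± 12.8), Anxa7 (12.7 ± 1.43), Anxa4 (7.56 ± 1.57), Anxa11 (3.26 ± 0.640), Anxa2 (2.64 ± 1.44), Anxa1 (0.990 ± 0.513), Anxa3 (0.630 ± 0.318) and Anxa13 (0.530 ± 0.180). Among neighbours, ranges over libraries overlapped between Anxa6 and Anxa5, between Anxa11 and Anxa2, between Anxa1 and Anxa3 and between Anxa3 and Anxa13. In WT livers Anxa5 led (104 ± 30.9 FPKM), before Anxa6 (39.8 ± 6.50), Anxa2 (21.7 ± 8.82), Anxa7 (18.2 ± 2.13), Anxa4 (11.8 ± 1.27), Anxa11 (4.81 ± 0.427), Anxa1 (2.91 ± 0.510), Anxa3 (1.59 ± 0.199) and Anxa13 (0.827 ± 0.155). There Anxa2 and Anxa7 were the one pair of neighbours whose ranges overlapped.

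**Figure D3:**
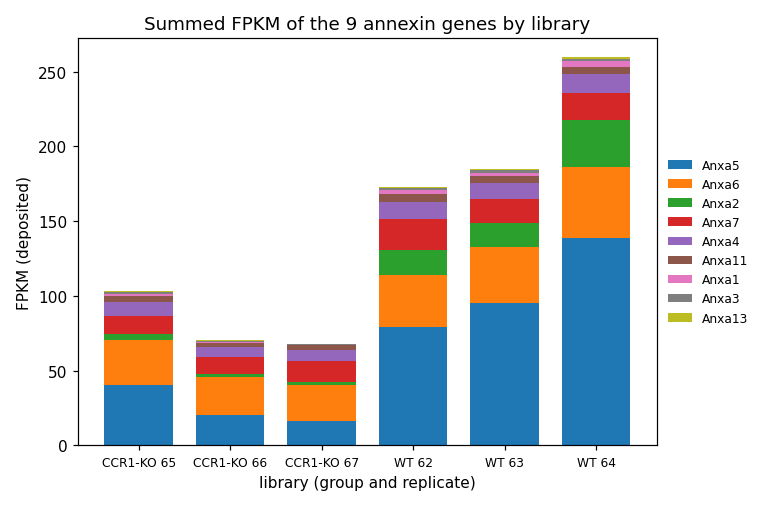
Deposited FPKM of the 9 annexin genes, stacked by library, with the 3 CCR1-KO livers on the left and the 3 WT livers on the right. The stacks reach 68.1 to 103 FPKM in CCR1-KO and 173 to 259.6 FPKM in WT livers, and the Anxa5 and Anxa2 segments differ most in height.

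Livers of 1 group differed among themselves in ways several annexins shared. By CPM, CCR1-KO replicate 65 was the highest of its group for 6 of the 9 genes, among them all 3 that fell, and the lowest for Anxa6 and Anxa7. WT replicate 64 was the highest WT liver for 7 of the 9. Leaving out CCR1-KO replicate 65 brought 4 annexins past the threshold, and leaving out CCR1-KO replicate 66, WT replicate 63 or WT replicate 64 left Anxa2 alone. Calls over all genes moved likewise, from 1141 of 17729 with all libraries to 2419 of 18360 without CCR1-KO replicate 65. They numbered 331 of 18473 without CCR1-KO replicate 66, 102 of 18285 without WT replicate 63 and 163 of 18297 without WT replicate 64.

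**Figure D4:**
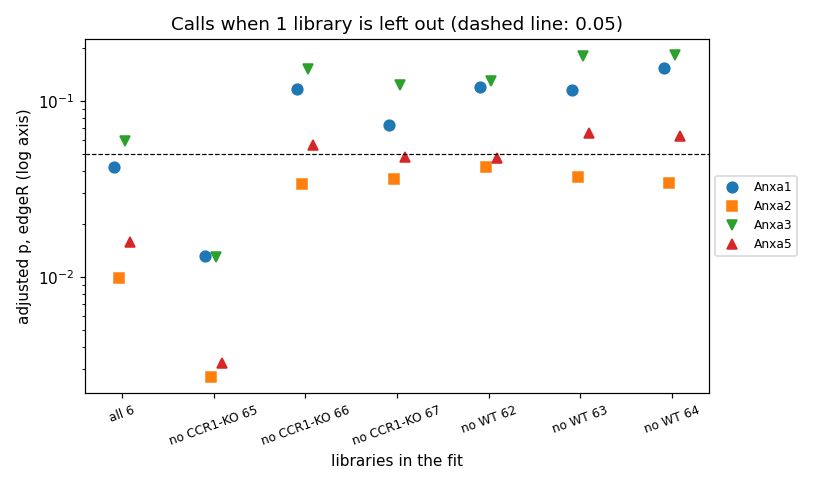
Adjusted p of Anxa1, Anxa2, Anxa3 and Anxa5 (log axis) with all 6 libraries and with each library left out in turn; the dashed line is the threshold of 0.05. Anxa2 stays below the line in all 7 fits, and Anxa1 crosses it in every fit that drops a library other than CCR1-KO replicate 65.

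S100 proteins bind annexin tails, and both best known partners were measured. S100a10, the partner of Anxa2, had 125, 70.5 and 44.9 CPM in CCR1-KO replicates 65, 66 and 67, against 137, 149 and 170.2 CPM in WT replicates 62, 63 and 64. The groups did not overlap, but CCR1-KO replicate 65 came close to WT, and the log2 fold change of -0.92 ± 0.33 did not pass (adjusted p = 0.14, edgeR). S100a11, a partner of Anxa1, fell to 3.65, 3.03 and 2.12 CPM in CCR1-KO replicates 65, 66 and 67, against 19.6, 11.7 and 24.9 CPM in WT replicates 62, 63 and 64 (log2 fold change -2.67 ± 0.32, adjusted p = 0.0091, edgeR), a call kept in all 6 fits without 1 library. Of 5 tested S100 partners, S100a11 was the 1 that passed, and the list's median log2 fold change was -0.92. S100a6 had 0.996 ± 0.527 CPM in CCR1-KO and 3.53 ± 2.13 CPM in WT livers (adjusted p = 0.087, edgeR).

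Ratios of partner to annexin were chosen after the values were seen and are given as a description. Per length, S100a10 exceeded Anxa2 by 23.2, 27.8 and 13.5 times in CCR1-KO livers, against 6.43, 7.70 and 4.69 times in WT livers. S100a11 exceeded Anxa1 by 4.49, 5.10 and 5.82 times in CCR1-KO livers, against 13.7, 9.17 and 14.9 times in WT livers.

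Plasminogen activation, which Anxa2 with S100a10 promotes at the cell surface, changed in 3 of 10 tested genes. The tissue activator Plat fell to 0.348 ± 0.139 CPM in CCR1-KO, against 2.46 ± 1.88 CPM in WT livers (log2 fold change -2.82 ± 0.60, adjusted p = 0.037). The urokinase Plau fell to 0.747 ± 0.526 CPM in CCR1-KO, against 3.68 ± 0.629 CPM in WT livers (log2 fold change -2.28 ± 0.47, adjusted p = 0.034). Serpine2, an inhibitor of such proteases, rose to 30.8 ± 23.4 CPM in CCR1-KO, against 3.60 ± 1.57 CPM in WT livers (adjusted p = 0.034, edgeR). Plat lost its call in each of the 6 fits without 1 library, and Plau and Serpine2 held it in 1. The substrate Plg had 2069 ± 168 CPM in CCR1-KO and 1625 ± 73.5 CPM in WT livers (adjusted p = 0.17). The list's median log2 fold change was -0.30.

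Among formyl peptide receptors, through which Anxa1 acts, and enzymes of eicosanoid synthesis, 1 of 13 tested genes passed, and the median log2 fold change was 0.12. This was Tsc22d3, a glucocorticoid-induced gene like Anxa1 that was listed with them, at 122 ± 32.3 CPM in CCR1-KO and 50.9 ± 6.63 CPM in WT livers (log2 fold change 1.26 ± 0.21, adjusted p = 0.0195, edgeR). The call held in 2 of 6 fits without 1 library, and was lost with no scaling factors (adjusted p = 0.0653) and in limma on log2(FPKM + 0.5) (adjusted p = 0.0744). The receptors had few reads, 58 to 253 for Fpr1 and 13 to 91 for Fpr2 in CCR1-KO libraries, against 37 to 214 for Fpr1 and 30 to 137 for Fpr2 in WT libraries. Neither passed (adjusted p = 0.65 for Fpr1 and 0.69 for Fpr2, edgeR), and their groups overlapped.

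Membrane repair genes, where annexins act with dysferlin proteins and caveolae, fell in 2 of 16 tested, with 0 higher in edgeR, at unadjusted p under 0.05, in DESeq2 and in limma (median log2 fold change -0.42). These were Ehd2, a protein associated with caveolae (2.51 ± 0.340 CPM in CCR1-KO and 5.80 ± 1.9 CPM in WT, adjusted p = 0.043), and Ehd1, a regulator of endosome recycling (26.0 ± 4.25 CPM in CCR1-KO and 40.4 ± 2.50 CPM in WT, adjusted p = 0.042). Without 1 library, Ehd1 passed in 1 of 6 fits and Ehd2 in 0. In 10 of the 16 the CCR1-KO libraries were all lower than the lowest WT library, as in 17.4% of all genes tested. At an unadjusted p under 0.05, 10 of the 16 were lower, as were 13.2% of all genes tested. Lower in DESeq2 were 6, and in limma 5, against 1312 of 27912 genes in DESeq2 and 1088 of 12500 in limma. In edgeR, 3.61% of all genes tested passed lower.

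Of 15 tested genes that expose or recognise phosphatidylserine, the lipid Anxa5 binds, 2 fell and 1 rose (median log2 fold change 0.13). Both that fell encode secreted bridging proteins that bind this lipid. Gas6 had 24.7 ± 7.78 CPM in CCR1-KO and 82.0 ± 17.4 CPM in WT livers (log2 fold change -1.73 ± 0.25, adjusted p = 0.013), and Mfge8 had 10.97 ± 1.94 CPM in CCR1-KO and 25.4 ± 3.92 CPM in WT livers (log2 fold change -1.21 ± 0.17, adjusted p = 0.013, edgeR). Atp11a, a flippase that returns phosphatidylserine to the inner leaflet, rose to 20.6 ± 4.76 CPM in CCR1-KO, against 7.34 ± 0.557 CPM in WT livers (log2 fold change 1.49 ± 0.19, adjusted p = 0.0098). Without 1 library, Atp11a passed in 5 of 6 fits, Mfge8 in 4 and Gas6 in 3.

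Of 12 tested genes of cortical actin and galectins, 3 fell and 0 rose in edgeR, with 0 higher at unadjusted p under 0.05, in DESeq2 and in limma (median log2 fold change -0.46). The actin-binding Tmsb10 fell to 3.69 ± 0.465 CPM in CCR1-KO, against 11.05 ± 2.44 CPM in WT livers (adjusted p = 0.011). The actin-capping Capg (adjusted p = 0.038) and the galectin Lgals1 (14.5 ± 15.0 CPM in CCR1-KO and 99.6 ± 1.89 CPM in WT, adjusted p = 0.047, edgeR) fell as well, each held in 1 of 6 fits without 1 library. Of 6 tested partners of Anxa7 and Anxa11 with penta-EF-hands or in the ESCRT machinery, 0 passed in edgeR, 0 at unadjusted p under 0.05, 0 in DESeq2 and 1 in limma (median log2 fold change -0.13). Sri (sorcin) had the smallest p (26.0 ± 2.27 CPM in CCR1-KO and 31.1 ± 1.70 CPM in WT, adjusted p = 0.21, edgeR).

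By the nearest profile over the 6 libraries among 10333 other genes with a mean of at least 1 FPKM, Anxa2 was most like the predicted gene Gm9780, Cpxm1 (a carboxypeptidase-like secreted protein) and Cidec (a lipid droplet protein). Their distances of 0.53, 0.60 and 0.70 on the log2 scale were larger than those of the Anxa5 and Anxa1 neighbours. Gm9780 was low, at 0.251 to 0.588 CPM in CCR1-KO and 1.72 to 3.93 CPM in WT livers. Cidec, the third, had 5.94 to 10.96 CPM in CCR1-KO and 50.5 to 82.0 CPM in WT livers. Anxa5 was most like Ifi27l2a, Gas6 and Haus8, at distances of 0.44, 0.45 and 0.45 on the log2 scale. Anxa1 was most like Maoa (monoamine oxidase A), Treh (trehalase) and Maged2, at distances of 0.22, 0.36 and 0.37. With 6 libraries in 2 groups, such likeness is a description.

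Markers of other cell types moved with the annexins to different extents. Stellate cell and fibroblast markers fell in 6 of 10 tested, against 3.61% of all genes tested (Col3a1, Col1a2, Dcn and Lrat had the smallest p). The number that passed was 4 without CCR1-KO replicate 65, 0 without CCR1-KO replicate 66, 1 without CCR1-KO replicate 67, 2 without WT replicate 62, 1 without WT replicate 63 and 2 without WT replicate 64. Calls over all genes changed in these fits too, as given above for 4 of them. They numbered 395 of 18482 without CCR1-KO replicate 67 and 202 of 18331 without WT replicate 62. For all 10, the summed level was 219 to 255 CPM in CCR1-KO and 436 to 969 CPM in WT livers. The collagen gene Col3a1 averaged 16.1 ± 4.27 CPM in CCR1-KO and 171.5 ± 123 CPM in WT livers (adjusted p = 0.013, edgeR). Bile duct markers, among which Spp1 fell, had a summed level of 52.4 to 62.1 CPM in CCR1-KO and 136 to 208 CPM in WT livers. Spp1 (osteopontin) averaged 41.8 ± 4.07 CPM in CCR1-KO and 142 ± 35.2 CPM in WT livers (adjusted p = 0.0074, edgeR), a call kept in all 6 fits without 1 library. Most of the bile duct sum was Spp1: the sum averaged 58.6 ± 5.41 CPM in CCR1-KO and 169 ± 36.3 CPM in WT livers. Macrophage markers passed in 0 of 9 in edgeR, 2 at unadjusted p under 0.05, 1 in DESeq2 and 1 in limma, all lower. At an unadjusted p under 0.05, 13.2% of all genes tested were lower. Without CCR1-KO replicate 65, 7 of 9 passed. In that fit 2419 of 18360 genes passed in all, against 1141 of 17729 with all libraries. The macrophage sums of the 2 groups overlapped, at 152 to 345 CPM in CCR1-KO and 253 to 313 CPM in WT livers. CCR1-KO replicate 65, highest of its group for Anxa1, Anxa2 and Anxa5, was also the highest for this sum. Monocyte and neutrophil markers passed in 0 of 7 (1 lower at unadjusted p under 0.05, 1 in DESeq2 and 1 in limma), with sums of 4.27 to 9.12 CPM in CCR1-KO and 10.1 to 16.3 CPM in WT livers. Ccr2 was the 1 of these 7 whose groups did not overlap, with CCR1-KO lower, as in 17.4% of all genes tested (15.2% with CCR1-KO higher). It did not pass with all libraries (adjusted p = 0.053, edgeR), and passed in 1 of 6 fits without 1 library. It had 1.17 ± 0.948 CPM in CCR1-KO and 6.10 ± 2.59 CPM in WT livers, a large part of the WT sum. The part of these marker lists in the annexin values was not tested.

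The remaining marker lists moved less or rested on few reads. Of 6 tested hepatocyte markers 2 rose, Ass1 and Cps1, each held in 1 of 6 fits without 1 library (that without CCR1-KO replicate 65), and the sums overlapped, at 66932 to 84330.0 CPM in CCR1-KO and 69463 to 82726 CPM in WT livers. Endothelial markers passed in 0 of 8 in edgeR, 0 in DESeq2 and 0 in limma, with sums of 151 to 194 CPM in CCR1-KO and 164 to 242 CPM in WT livers. At an unadjusted p under 0.05, 3 of the 8 were lower, as were 13.2% of all genes tested. Of 6 T and NK cell markers Cd4 rose (adjusted p = 0.011, held in 4 of 6 fits without 1 library and lost without WT replicate 63 or 64), and their sums were 3.16 to 4.23 CPM in CCR1-KO and 1.60 to 3.27 CPM in WT livers. B cell markers (0 of 4), mesothelial markers (0 of 3) and red blood cell markers (0 of 5) did not pass in edgeR, DESeq2 or limma, and 0, 0 and 1 (higher) of them had an unadjusted p under 0.05. Their sums were 1.05 to 2.04, 0.138 to 1.92 and 245 to 672 CPM in CCR1-KO livers, against 2.36 to 3.84, 1.49 to 7.55 and 291 to 494 CPM in WT livers. No gene of any marker list found in the table was at 0 in all 6 libraries.

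**Figure D5:**
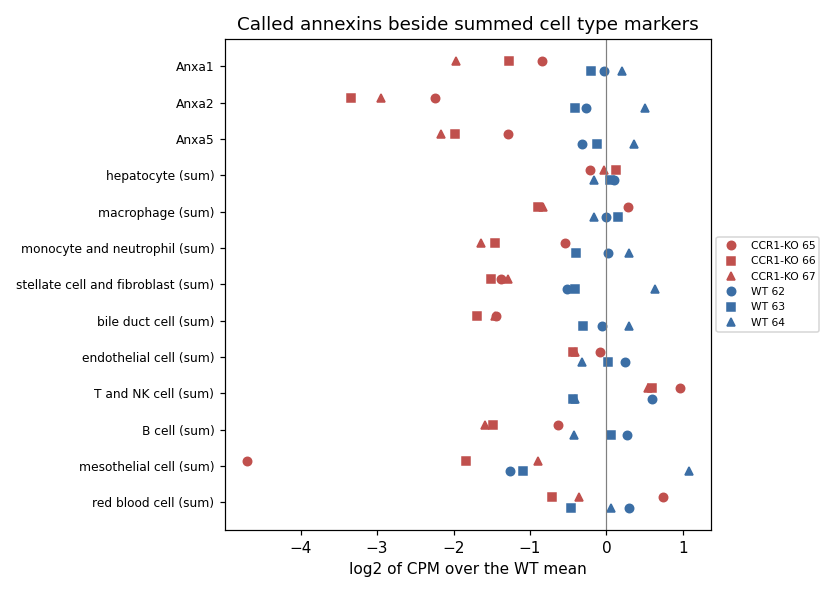
CPM of Anxa1, Anxa2 and Anxa5 and summed CPM of 10 cell type marker lists in each library, as log2 relative to the WT mean of that row (line at 0). CCR1-KO libraries lie left of all WT libraries for the 3 annexins and for the stellate, bile duct, monocyte and neutrophil, and B cell sums, and overlap them for hepatocyte, macrophage, endothelial, T and NK cell, mesothelial and red blood cell sums. The bile duct sum is mostly Spp1, and Ccr2 is the 1 tested monocyte and neutrophil marker whose groups do not overlap. Over all genes tested, CCR1-KO libraries were all below WT in 17.4% and all above in 15.2%.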

How the data were processed

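RNA sequencing of oligo(dT)-selected liver RNA was used (2 groups of 3 libraries). Groups and replicate numbers came from the sample titles. Per the labels' protocols, second strands carried dUTP and reads were paired. The sources used here do not say if strand was used in counting. Per the submitters' processing notes, the tools included DESeq2, edgeR, StringTie 2.1.6, HISAT2 2.2.1 and cutadapt 1.9, whose roles are not stated. The authors deposited whole-number read counts per gene, not normalized, which were used as they stand. The deposited FPKM values, scaled by the authors to gene length and library size, were used for levels between genes and in limma. The notes name a human build, but identifiers are of mouse: 27839 of 27912 were found in GENCODE M21 (GRCm38), 86.8% of them with the same coordinates, including 8 of the 9 chosen annexins (not Anxa13).

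The members and gene lists were chosen with earlier results of these data known. Genes kept by filterByExpr (minimum count 10, minimum total 15), 17729 in all, were tested with edgeR 4.0.16 (R 4.3.3) after TMM scaling. Alternatives were DESeq2 1.42.0, limma 3.58.1 on log2(FPKM + 0.5) for genes of at least 0.5 FPKM in 3 libraries, other scalings, no filter, other pseudocounts and leaving out each library. Standard errors were obtained by dividing the size of the log2 fold change by the root of its F statistic. The count test was tested on simulated data. Replicate pairs differed by more than sampling noise (chi-square per degree of freedom at least 50.6). Named were all members, Ccr1 and, per list, the genes past the threshold (the 4 of smallest p where over 5 passed, or the 1 of smallest p where none did), plus for each member that passed the 3 genes of nearest log2 CPM profile. S100a10, S100a6, Plg, Fpr1, Fpr2, Alb, Nnt, Gm2260 and Gm2274 were added after their values were seen. In lists with none called, the gene of smallest p is named here where the text does not: Cd68 (macrophage), Cdh5 (endothelial), Cd79b (B cell), Wt1 (mesothelial) and Alas2 (red blood cell). Promoter sequences are from RefSeq, GRCm38.p6. Depth limits low genes: 1 read was 0.0113 to 0.0167 CPM. The test result of 1 bile duct marker is not reported here.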

Additional observations from a re-analysis of the deposited data

How the results depend on the processing

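All 9 annexins kept a fitted log2 fold change below 0 under each of the 15 alternatives run. Annexins past the threshold numbered 3 with all libraries, 1 in limma with no filter on low values (Anxa2), 2 in edgeR with no filter (Anxa2 and Anxa5) and 1 to 4 with 1 library left out. Over all genes 1141 passed, against 735 in edgeR with no filter, 2347 in DESeq2, 239 in limma with no filter and 102 to 2419 with 1 library left out. Of the genes in the lists 25 passed, against 41 in DESeq2, 5 in limma with no filter and 4 to 45 with 1 library left out. In CCR1-KO, summed annexin FPKM was 33.6% to 44.9% of WT with 1 library left out. The share of called genes that were higher was 43.9% with TMM, 20.4% with no scaling factors (median log2 fold change of all genes -0.30) and 17.0% in limma on log2(FPKM + 0.5), which also tests fewer genes (12500; median -0.23). The cause of these differences was not tested. Over 49 named genes and the alternatives, 537 fits gave the same call, 152 lost it, 34 gained it and none reversed. No paired analysis was possible because the groups share no replicate number. Low counts limit Anxa13, Anxa8 and the formyl peptide receptors.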
